A study of Sus scrofa with 32 samples.

Results

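Liver RNA of 4 runt pig fetuses at gestational day 110, near term, was compared with liver RNA of 4 runt fetuses at gestational day 37. The samples were chosen by their labels, and they make up 8 of the 32 arrays of the series. The other arrays hold runt liver at days 50 and 70 and control liver at days 37, 50, 70 and 110, with 4 fetuses in each of the 8 groups. The pregnant gilts had lost 1 uterine horn and 1 ovary to surgery before artificial insemination, so the remaining horn was crowded. The labels name this crowding as the origin of growth-restricted offspring and carry no other treatment, strain or fetal sex. All groups share it, controls included. Runts and controls were littermate pairs from 4 gilts per day, and each day drew on its own 4 pregnancies. The labels' protocol text calls the same ages postnatal in places, whereas every sample label and the design text give them as gestational.

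The liver of a mid-gestation mammal is the main site of blood formation. Islands of dividing red cell precursors lie between immature hepatocytes, and megakaryocytes, macrophages and endothelium share the space. Towards term blood formation moves to the bone marrow, and hepatocytes take up the adult work of making plasma proteins, clearing drugs and hormones and releasing glucose. Fetal cortisol and thyroid hormone help to drive the last part of that change.

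The values are fluorescence intensities of a single-colour Agilent pig array. A level is the log2 of a probe's signal minus the 75th percentile of its array, so that 0 marks the signal at that percentile, and it compares samples for 1 probe but not 1 probe with another. A log2 change is day 110 minus day 37. The scanner software placed 51.3% to 69.4% of an array's spots well above background and none at saturation. Across probes the 4 day 110 runt arrays correlated at 0.969 to 0.977, the 4 day 37 runt arrays at 0.963 to 0.980, and arrays of different days at 0.893 to 0.914. The 8 arrays lie on 7 slides in 2 sets, with replicates 1 and 2 of both days on slides 4 to 9 and replicates 3 and 4 on slides 1 to 3. The first principal component, with 45.6% of the variance, ordered the days, and the second, with 8.30%, parted the slide sets, apart from day 37 replicate 2, which lay on the side of slides 1 to 3. All day 110 arrays sat at position 4 of a slide and all day 37 arrays at position 1, so these days and array position cannot be told apart.

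Of 28670 features tested, 7760 passed (27.1%), which takes both an adjusted p below 0.05 and a 2-fold change or more, with 4250 higher (14.8%) and 3510 lower (12.2%) in day 110 runts than in day 37 runts. The test was limma on all 32 arrays with Benjamini-Hochberg adjustment over all features, and every adjusted p below comes from it with n = 4 runts per day. In the text, rose, fell, higher and lower without a further word mark genes that passed both limits. The groups of 4 arrays did not overlap for 3707 of the higher and 3145 of the lower features. The median change over all features was 0.040 on the log2 scale. Only 1596 features carried a gene symbol, and of these 580 passed (36.3%), as 362 rises (22.7%) and 218 falls (13.7%), which are the shares to set each gene list against. Of the 4250 higher features, 1006 were not well above background on any day 37 runt array. Of the 3510 lower features, 405 were not so on any day 110 runt array. Among genes with a symbol, this held for 65 of the rises and 20 of the falls. Such genes have a fold change that is only a lower bound, given as "at least" and computed against the background limit. On the dimmer day, 1 of 4 runt arrays was above background for C6, GSTA1, GBP1, SPEF2, KCNN3, GHR, RGS5 and CCL2, 2 were for TFRC, TBXAS1 and STEAP4, and 3 were for CYP2C49, STEAP1, GATA4, AQP1 and AURKA, so their changes rest in part on dim spots. CYP7A1 and RSAD2 were above background on 3 of the 4 day 110 runt arrays. Within slides 1 to 3 alone 6735 features passed and within slides 4 to 9 alone 6767. In whole liver, fewer cells of a type and less RNA per cell cannot be told apart.

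The labelled tissue was borne out by its markers. Apolipoprotein APOA1, the main protein of high density lipoprotein, had levels of 9.71, 9.69, 9.26 and 9.92 in day 110 runts, against 9.36, 9.42, 9.18 and 9.31 in day 37 runts. The ranges overlapped and the log2 change of 0.33 ± 0.21 (SE) did not pass (adjusted p = 0.21). Alpha-fetoprotein, AFP, the fetal counterpart of albumin, had levels of 9.55, 9.43, 8.79 and 8.88 in day 110 runts and 9.85, 9.53, 9.41 and 9.38 in day 37 runts, and its log2 change of -0.38 ± 0.30 (SE) did not pass either (adjusted p = 0.302). Both are hepatocyte products and were well above background on all 8 arrays.

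Among genes with a symbol, the largest rise belonged to NR1I2, the pregnane X receptor, a nuclear receptor that senses drugs and bile acids and turns on their clearance. Its levels were 2.88, 3.12, 3.44 and 3.43 in day 110 runts, against -6.67, -6.84, -6.32 and -6.75 in day 37 runts. No day 37 runt array was above background, so the rise was at least 209-fold (log2 change 9.86 ± 0.41 (SE), adjusted p = 1.71e-15). C6, a component of the complement pore, had levels of 1.66, 3.21, 3.52 and 3.04 in day 110 runts, against -5.93, -6.76, -6.33 and -4.18 in day 37 runts. The groups lay far apart, although replicate 1 was the lowest of the day 110 runts and replicate 4 the highest of the day 37 runts. Since C6 was above background on 1 of the 4 day 37 runt arrays, its log2 change of 8.66 ± 0.67 (SE), adjusted p = 2.56e-11, rests mostly on dim spots there. Its second probe, below background on all 4, also rose. GSTA1, a glutathione transferase that detoxifies reactive compounds, had levels of -0.25, 5.07, 5.36 and 5.62 in day 110 runts, against -4.68, -4.98, -4.00 and -4.72 in day 37 runts. Replicate 1 of the day 110 runts stood well below the other three but still above every day 37 runt. The log2 change of GSTA1 was 8.54 ± 0.94 (SE), adjusted p = 2.04e-08, and without that replicate it was 9.94.

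NTN1, a guidance and survival factor of the netrin family, had levels of 1.63, 2.64, 1.88 and 2.13 in day 110 runts, against -4.67, -4.79, -6.20 and -6.03 in day 37 runts, at least 94.6-fold higher (adjusted p = 2.56e-12). DMBT1, a secreted scavenger protein of epithelia, had levels of -0.11, 0.26, 1.61 and 0.25 in day 110 runts, against -6.46, -6.58, -6.05 and -6.56 in day 37 runts, at least 32-fold higher (adjusted p = 1.9e-05). For both genes every day 37 runt array was below background. DEFB1, an antimicrobial defensin, had levels of 4.54, 4.66, 3.35 and 4.82 in day 110 runts, against -2.02, -1.70, -3.16 and -0.61 in day 37 runts, which made it 74.1-fold higher (adjusted p = 3.03e-09).

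The largest fall among them belonged to HBE1, the embryonic epsilon chain of haemoglobin. Its levels were -2.80, -2.20, -2.25 and -2.59 in day 110 runts, against 4.42, 4.82, 5.49 and 4.86 in day 37 runts. The groups were separated by more than 6 log2 units, and HBE1 was 164-fold lower (log2 change -7.36 ± 0.34 (SE), adjusted p = 6.44e-15). CITED1, a transcriptional co-regulator, had levels of -6.01, -5.33, -7.09 and -4.30 in day 110 runts, against 0.60, 1.23, 2.07 and 0.49 in day 37 runts. It was not above background on any day 110 runt array and was at least 71.7-fold lower (adjusted p = 6.6e-13). TLDC2, a protein with a TLDc domain, had levels of -6.35, -7.36, -7.06 and -6.40 in day 110 runts, against -1.70, 0.12, 0.43 and -1.22 in day 37 runts, at least 22.9-fold lower (adjusted p = 9.46e-12). UPK2, a membrane protein known from bladder epithelium, had levels of -5.49, -5.61, -5.68 and -4.91 in day 110 runts, against 0.38, -0.73, -0.73 and -0.90 in day 37 runts, at least 24.5-fold lower (adjusted p = 1.24e-10).

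The fall also covered a pair of calcium-activated potassium channels, of which KCNN4 is the Gardos channel of red cells. KCNN4 had levels of -1.40, -0.80, -1.68 and -3.76 in day 110 runts, against 3.43, 3.60, 3.86 and 3.17 in day 37 runts, 42.9-fold lower (adjusted p = 1.81e-10). Day 110 replicate 4 was the lowest array for it, and without that array the log2 change was -4.81. KCNN3 was 23.3-fold lower (log2 change -4.54 ± 0.44 (SE), adjusted p = 1.65e-09). PHACTR3, a regulator of protein phosphatase 1 and actin, was 31-fold lower (log2 change -4.95 ± 0.46 (SE), adjusted p = 9.06e-10). SPEF2, a sperm flagellum protein, was 29.5-fold lower on the probe that stands for it, with a log2 change of -4.88 ± 0.82 (SE) that was -4.26 without day 37 replicate 1. Of its other tested probes, 1 fell by 2.65 (adjusted p = 4.65e-07) and 1 changed by -0.65 and did not pass (adjusted p = 0.0815).

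**Figure D1:**
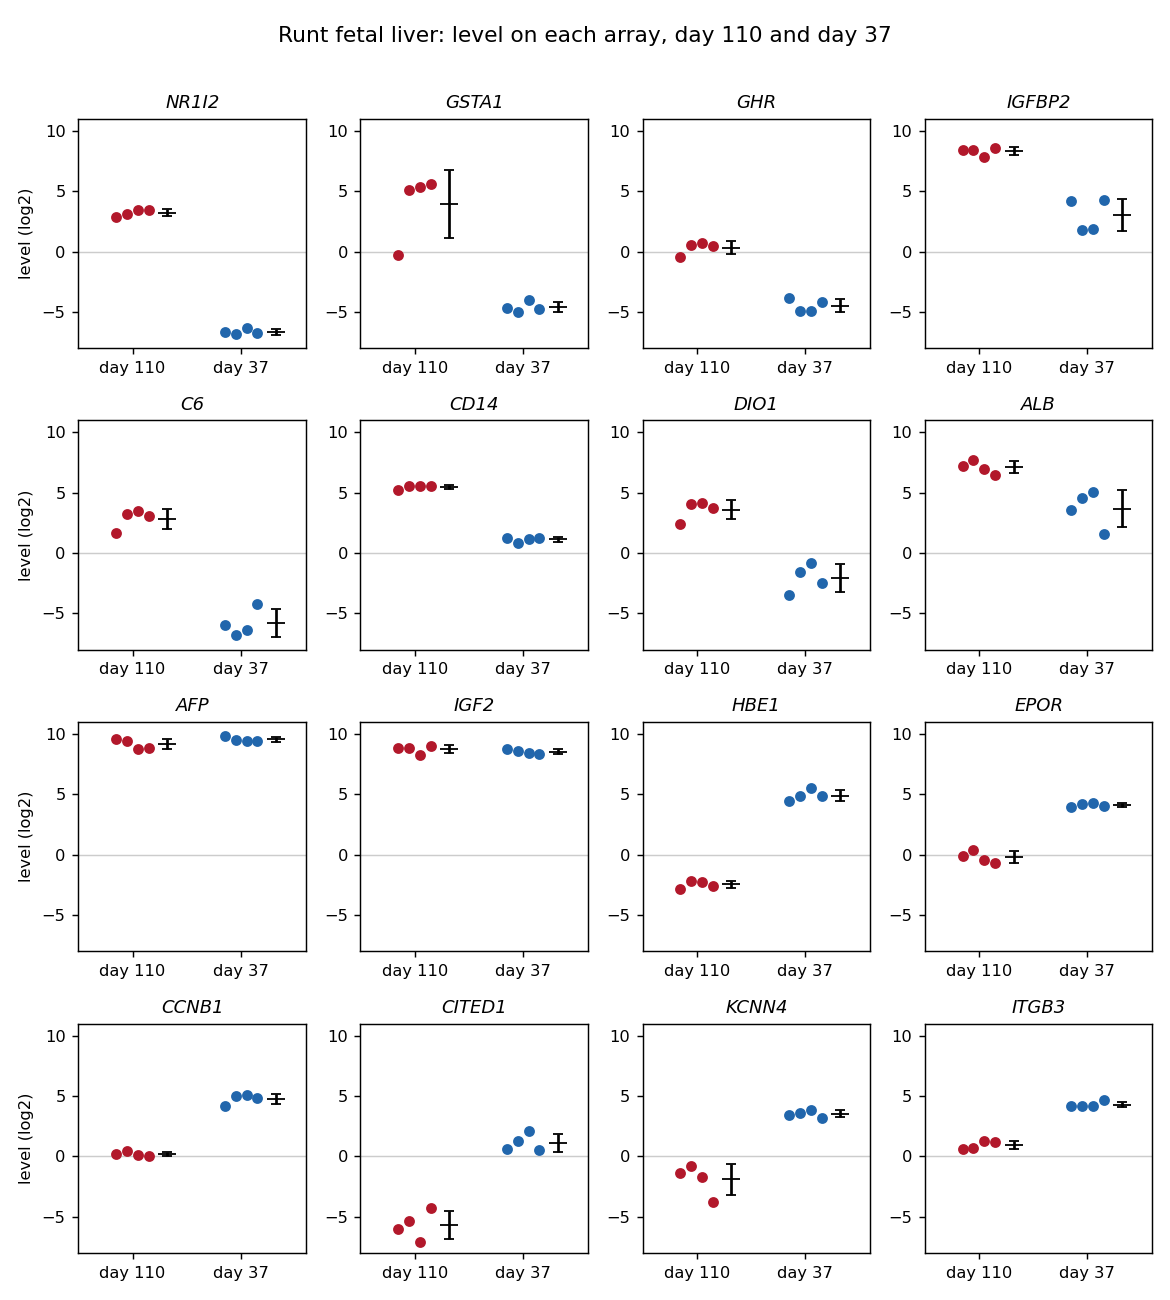
Levels of 16 genes on the log2 scale relative to the 75th percentile of each array, 1 point per fetus, with the mean and 1 SD of 4 beside them in black, day 110 runts left of day 37 runts. NR1I2, C6 and GSTA1 rise with groups that do not overlap, HBE1 and CCNB1 fall in the same way, and the groups of AFP and IGF2 overlap.

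Among the carriers and protease inhibitors that hepatocytes secrete, 4 of 18 measured genes rose and 1 fell, shares of 22.2% and 5.56% beside the 22.7% and 13.7% of all genes with a symbol. Albumin, ALB, the main plasma protein, had levels of 7.24, 7.69, 6.95 and 6.51 in day 110 runts, against 3.56, 4.56, 5.04 and 1.56 in day 37 runts. The day 37 runts were spread over more than 3 log2 units, with replicate 4 the lowest, and none reached the day 110 range. ALB rose by a log2 change of 3.42 ± 0.59 (SE), adjusted p = 2.26e-05, its second probe rose by 3.81, and the change without day 37 replicate 4 was 2.71. SERPINA7, which carries thyroid hormone in plasma, was 3.19-fold higher, with a log2 change of 1.67 ± 0.18 (SE). VTN, vitronectin, a plasma adhesion protein, was 2.96-fold higher, with a log2 change of 1.56 ± 0.15 (SE).

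SERPINA6, the cortisol-binding globulin, was the member that fell. Its levels were 7.53, 7.97, 8.14 and 8.14 in day 110 runts, against 8.91, 9.01, 9.05 and 8.90 in day 37 runts, and it was 2.03-fold lower (log2 change -1.02 ± 0.18 (SE), adjusted p = 2.22e-05). The change lay close to the 2-fold limit and was -0.88 without day 110 replicate 1 and -0.995 without day 37 replicate 3, both under it. Transferrin, TF, the plasma iron carrier, had levels of 6.05, 6.79, 7.11 and 7.51 in day 110 runts and 7.78, 7.77, 7.54 and 7.64 in day 37 runts. The groups did not overlap, but the log2 change of -0.82 ± 0.20 (SE) missed the 2-fold limit, which it passed without day 110 replicate 4 (-1.04) and within slides 4 to 9 (-1.36). Transthyretin, TTR, another thyroid hormone and retinol carrier, had levels of 8.43, 8.19, 6.98 and 7.17 in day 110 runts and 8.47, 8.34, 7.50 and 7.31 in day 37 runts. At both days its 2 arrays on slides 4 to 9 were above its 2 arrays on slides 1 to 3, and the log2 change of -0.21 ± 0.49 (SE) did not pass (adjusted p = 0.745).

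Complement, the plasma cascade that marks and lyses microbes, was the hepatocyte list with the largest share of rises. 16 of 23 measured genes (69.6%) rose and 1 fell, with 24 of 35 listed genes on the array and a median log2 change of 1.92. Beside C6, C4BPA, the fluid-phase inhibitor that binds C4b, had levels of 3.68, 4.75, 4.51 and 5.78 in day 110 runts, against -2.25, 0.94, -1.03 and -0.30 in day 37 runts, 40.4-fold higher (adjusted p = 0.000439). C7, the next component of the pore, was at least 4.75-fold higher, since no day 37 runt array was above background. FCN2, a ficolin that starts the lectin pathway, had levels of 3.78, 7.61, 6.93 and 7.87 in day 110 runts, against 2.81, 2.10, 3.19 and 3.14 in day 37 runts. Day 110 replicate 1 was about 3 log2 units under the other day 110 runts. The log2 change of FCN2 was 3.74 ± 0.89 (SE), adjusted p = 0.000991, it was 4.66 without that replicate, and within slides 4 to 9 it was 3.24 and did not pass (adjusted p = 0.0517). Clusterin, CLU, which restrains the complement pore, had a log2 change of -0.86 ± 0.17 (SE) with no overlap between the groups, short of the 2-fold limit in the full fit and at -1.01 within slides 4 to 9.

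In coagulation 7 of 13 measured genes rose and 1 fell (median log2 change 1.003). Prekallikrein, KLKB1, of the contact pathway, had levels of 3.25, 3.13, 2.38 and 2.62 in day 110 runts, against -0.58, -0.76, -0.24 and -0.57 in day 37 runts, 10.5-fold higher (adjusted p = 2.86e-06). The vitamin K dependent factors F7, F10 and F9 rose by log2 changes of 2.57 ± 0.25 (SE), 2.08 ± 0.14 (SE) and 1.87 ± 0.16 (SE). Prothrombin, F2, had levels of 8.49, 8.58, 7.87 and 8.26 in day 110 runts and 7.65, 7.49, 7.39 and 7.71 in day 37 runts and a log2 change of 0.74 ± 0.20 (SE), under the 2-fold limit, while another F2 probe rose by 1.19 (adjusted p = 1.43e-06).

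Of 9 measured apolipoprotein and lipoprotein genes, 4 rose and 0 fell. APOA4, an apolipoprotein of triglyceride-rich particles, had levels of 1.06, 1.74, 4.11 and 1.86 in day 110 runts, against -1.22, -0.47, -1.55 and -1.09 in day 37 runts. Replicate 3 was the highest of the day 110 runts. The log2 change was 3.27 ± 0.76 (SE), adjusted p = 0.000728, 2.64 without that replicate, and 2.25 within slides 4 to 9, where it did not pass (adjusted p = 0.152). APOC4 and APOC3, apolipoproteins of very low density lipoprotein, rose by 2.04 ± 0.22 (SE) and 1.74 ± 0.19 (SE) on the log2 scale, and PLTP, which transfers phospholipid between lipoproteins, by 1.56 ± 0.22 (SE).

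Of 14 acute phase and IL6 pathway genes, 9 rose and 1 fell (median log2 change 1.34). SAA3, a serum amyloid A protein, had levels of 1.92, 1.12, 2.93 and 1.69 in day 110 runts, against -3.13, -3.13, -3.23 and -2.55 in day 37 runts, 30.3-fold higher (adjusted p = 7.24e-09). CD14 and LBP together present bacterial lipopolysaccharide to its receptor. CD14 had levels of 5.26, 5.58, 5.54 and 5.60 in day 110 runts, against 1.29, 0.88, 1.15 and 1.28 in day 37 runts, and the arrays of a day lay within 1 log2 unit of each other. It was 20.3-fold higher (adjusted p = 2.77e-14), and LBP was 9.77-fold higher (log2 change 3.29 ± 0.38 (SE), adjusted p = 3.8e-08). HAMP, hepcidin, the hormone that limits iron export, had levels of 7.13, 7.29, 7.14 and 7.67 in day 110 runts, against 6.37, 4.24, 5.95 and 5.15 in day 37 runts, a log2 change of 1.88 ± 0.50 (SE), adjusted p = 0.00251. Within slides 4 to 9 its change was 1.90 and did not pass (adjusted p = 0.0726).

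Of the 15 measured liver transcription factors and nuclear receptors, 9 rose (60%) and 0 fell. NR1I3, the constitutive androstane receptor and partner of NR1I2 in the control of drug clearance, had levels of 1.89, 1.84, 0.30 and 2.15 in day 110 runts, against -1.49, -2.17, -1.81 and -1.99 in day 37 runts. Day 110 replicate 3 was the lowest of its group. NR1I3 was 10.6-fold higher (adjusted p = 5.91e-08). GATA4, a factor of early liver development, was 4.95-fold higher, with a log2 change of 2.31 ± 0.24 (SE). HNF4A, the central regulator of hepatocyte identity, had levels of 0.48, 0.059, 0.61 and 0.35 in day 110 runts, against -0.24, -0.78, -0.97 and -0.94 in day 37 runts. Its log2 change of 1.11 ± 0.24 (SE) was near the 2-fold limit (adjusted p = 0.000391) and was 0.78 within slides 4 to 9, where it did not pass (adjusted p = 0.147).

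The cytochrome P450 and phase II list was divided. 9 of 24 measured genes rose and 4 fell, with a median log2 change of 0.43, yet the list held 5 of the 12 largest rises. CYP2C49, a P450 of the 2C family, had levels of 5.26, 2.51, 3.23 and 0.79 in day 110 runts, against -2.87, -6.37, -2.33 and -3.90 in day 37 runts. The arrays of each day were spread over more than 4 log2 units, and the log2 change was 6.81 ± 0.89 (SE), adjusted p = 3.66e-07. It was 5.98 without day 37 replicate 2, 6.04 without day 110 replicate 1 and 7.53 without day 110 replicate 4.

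CYP2C42, of the same family, had levels of 3.38, 0.96, -1.88 and 0.32 in day 110 runts, against -6.28, -4.95, -4.66 and -6.53 in day 37 runts, and was at least 36.6-fold higher (adjusted p = 2.06e-06). Its log2 change was 5.41 without day 110 replicate 1, the highest array, and 7.16 without day 110 replicate 3. CYP2E1, which oxidises ethanol and ketones, had levels of 5.88, 7.44, 6.24 and 5.77 in day 110 runts, against 3.39, -0.58, -1.40 and -2.98 in day 37 runts. The day 110 runts lay close together, whereas the day 37 runts ran over more than 6 log2 units. The log2 change of CYP2E1 was 6.72 ± 1.89 (SE), adjusted p = 0.00417, it was 7.98 without day 37 replicate 1 and 5.86 without day 37 replicate 4, and within slides 4 to 9 it was 5.25 and did not pass (adjusted p = 0.160). SULT2A1, a sulfotransferase of steroids and bile acids, had levels of 5.94, 4.22, 3.68 and 6.13 in day 110 runts, against -3.14, 0.21, 0.23 and 0.78 in day 37 runts, 44.3-fold higher (adjusted p = 1.11e-07). Its change was 4.58 without day 37 replicate 1, the lowest array. CYP7A1, which sets the pace of bile acid synthesis, was dim in both groups, at -3.19, -3.12, -4.62 and -4.86 in day 110 runts, against -6.35, -6.61, -6.22 and -6.55 in day 37 runts, and rose at least 1.46-fold (adjusted p = 2.91e-06).

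Insulin-like growth factors drive fetal growth, IGF2 before birth above all, while growth hormone comes to act through its liver receptor around birth. IGF2 had levels of 8.87, 8.84, 8.23 and 9.04 in day 110 runts and 8.77, 8.61, 8.46 and 8.31 in day 37 runts. The groups overlapped, and the log2 change of 0.21 ± 0.20 (SE) did not pass (adjusted p = 0.399). IGF1 had levels of -3.04, -2.65, -3.04 and -2.55 in day 110 runts and -2.43, -3.100, -3.70 and -3.43 in day 37 runts, which overlapped, with a change of 0.35 ± 0.24 (SE) that did not pass (adjusted p = 0.233). The receptor IGF1R changed by 0.043 ± 0.18 (SE) and did not pass (adjusted p = 0.867).

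The growth hormone receptor, GHR, had levels of -0.44, 0.55, 0.74 and 0.46 in day 110 runts, against -3.88, -4.94, -4.97 and -4.20 in day 37 runts. It was 28.3-fold higher (log2 change 4.82 ± 0.29 (SE), adjusted p = 3.56e-13). IGFBP2, a binding protein that is high in fetal blood, had levels of 8.45, 8.43, 7.85 and 8.55 in day 110 runts, against 4.15, 1.81, 1.91 and 4.24 in day 37 runts. The day 110 runts were close together, while day 37 replicates 1 and 4 were more than 2 log2 units above replicates 2 and 3. IGFBP2 was 39.3-fold higher (adjusted p = 2.11e-10). IGFBP3, the main carrier of the growth factors in later life, rose by 1.69 ± 0.22 (SE) on the log2 scale. SOCS2, a feedback inhibitor of growth hormone signalling, rose by 3.104 ± 0.23 (SE), and STAT5A, a signal transducer of the receptor, fell by 2.33 ± 0.22 (SE). Of the whole list of 15 measured genes, 8 rose and 2 fell.

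Among 10 imprinted and early fetal growth genes, 2 rose and 2 fell, CITED1 being one of the falls. PLAGL1, an imprinted transcription factor that regulates growth genes, had levels of -1.37, -1.55, -1.75 and -2.08 in day 110 runts, against 1.68, 2.29, 2.23 and 2.00 in day 37 runts, 13.3-fold lower (adjusted p = 8.55e-15). PEG10, a retrotransposon-derived imprinted gene, was 2.55-fold higher (log2 change 1.35 ± 0.15 (SE), adjusted p = 3.48e-08). GNAS, the stimulatory G protein subunit, had a log2 change of -0.94 ± 0.15 (SE) with no overlap between the groups. It missed the 2-fold limit, and passed it after quantile normalization (-1.06) and in the authors' deposited values (-1.06). The imprinted Notch ligand DLK1 gave a divided reading. The probe that stands for it had levels of -0.045, 1.22, 0.15 and 1.37 in day 110 runts and 1.23, 0.36, 1.41 and 1.37 in day 37 runts and did not pass (log2 change -0.42 ± 0.32 (SE)), whereas a dimmer probe of the gene fell by 4.20 (adjusted p = 2.00e-07).

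Among genes of glucocorticoid and thyroid hormone action, 6 of 12 measured genes rose and 1, SERPINA6, fell. DIO1, the enzyme that makes active thyroid hormone in liver, had levels of 2.41, 4.05, 4.14 and 3.75 in day 110 runts, against -3.46, -1.56, -0.80 and -2.49 in day 37 runts, 50.8-fold higher (adjusted p = 1.55e-09). HSD11B1, which regenerates cortisol from cortisone, had levels of 5.59, 5.57, 5.65 and 6.11 in day 110 runts, against 3.66, 3.04, 3.72 and 3.94 in day 37 runts, 4.39-fold higher (adjusted p = 1.49e-08). The glucocorticoid receptor, NR3C1, was 3.92-fold higher (log2 change 1.97 ± 0.16 (SE), adjusted p = 1.21e-10). KLF9, a transcription factor that both hormones induce, was below background on every day 37 runt array and rose at least 2.5-fold (adjusted p = 4.71e-11).

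In gluconeogenesis and glucose handling 4 of 6 measured genes rose and 0 fell. FBP1, fructose bisphosphatase, had levels of 7.09, 7.06, 6.45 and 7.18 in day 110 runts, against 5.19, 4.81, 5.01 and 4.90 in day 37 runts, 3.9-fold higher (adjusted p = 2.1e-08). PPARGC1A, a coactivator of fasting metabolism, rose by 1.75 ± 0.18 (SE) on the log2 scale, pyruvate carboxylase, PC, by 1.25 ± 0.17 (SE) and the liver glucose transporter SLC2A2 by 1.24 ± 0.20 (SE). The groups did not overlap for any of the 4, nor for 332 of the 362 rises among all genes with a symbol. In glycolysis 2 of 11 rose and 3 fell. PDK4, a kinase that closes pyruvate dehydrogenase, rose by 3.13 ± 0.47 (SE), and of its other tested probes 1 rose by 3.16 (adjusted p = 8.77e-05) and 1 changed by 0.35 and did not pass (adjusted p = 0.622). LDHA, lactate dehydrogenase, fell by 1.84 ± 0.26 (SE) and PFKM, a phosphofructokinase, by 1.21 ± 0.16 (SE).

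Of 15 genes of fatty acid oxidation, 2 rose and 4 fell. CPT1A, the gate of fatty acid entry into mitochondria, had levels of 3.24, 4.61, 4.72 and 4.32 in day 110 runts, against 1.97, 2.25, 1.88 and 2.02 in day 37 runts, 4.58-fold higher (adjusted p = 2.12e-08). The long-chain dehydrogenase ACADL fell by 1.67 ± 0.17 (SE) and the mitochondrial carrier UCP2 by 1.80 ± 0.30 (SE). Fatty acid and triglyceride synthesis and storage had 4 rises and 4 falls among 21. FABP4, a fatty acid binding protein known from adipocytes and endothelium, was dim and rose at least 2.8-fold, and CIDEC, a lipid droplet protein, rose by 1.52 ± 0.23 (SE). The hormone-sensitive lipase LIPE fell by 1.51 ± 0.15 (SE). CD36, a fatty acid translocase, fell by 2.08 ± 0.49 (SE), while its other probe changed by -0.52 and did not pass (adjusted p = 0.436), and within slides 1 to 3 the first probe changed by -2.04 and did not pass either (adjusted p = 0.0531).

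Fatty acid synthase, FASN, had levels of 7.40, 7.73, 7.56 and 7.87 in day 110 runts and 7.11, 7.15, 7.41 and 7.65 in day 37 runts, which overlapped, and its change of 0.31 ± 0.19 (SE) did not pass (adjusted p = 0.17). Of 13 genes of the urea cycle and amino acid breakdown, 4 rose and 1 fell. DAO, which degrades D-amino acids, had levels of 0.998, 2.39, 2.57 and 2.47 in day 110 runts, against -2.86, -2.38, 0.42 and -1.83 in day 37 runts, 13.6-fold higher (adjusted p = 1.97e-06), and its log2 change was 4.46 without day 37 replicate 3. GNMT, which disposes of excess methyl groups, rose by 1.70 ± 0.40 (SE) and changed by 1.52 within slides 1 to 3, where it did not pass (adjusted p = 0.118). Arginase, ARG1, the last enzyme of the urea cycle, had levels of 4.95, 4.70, 4.73 and 4.74 in day 110 runts, against 5.93, 6.56, 6.32 and 5.89 in day 37 runts, 2.63-fold lower (adjusted p = 3.68e-08).

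**Figure D2:**
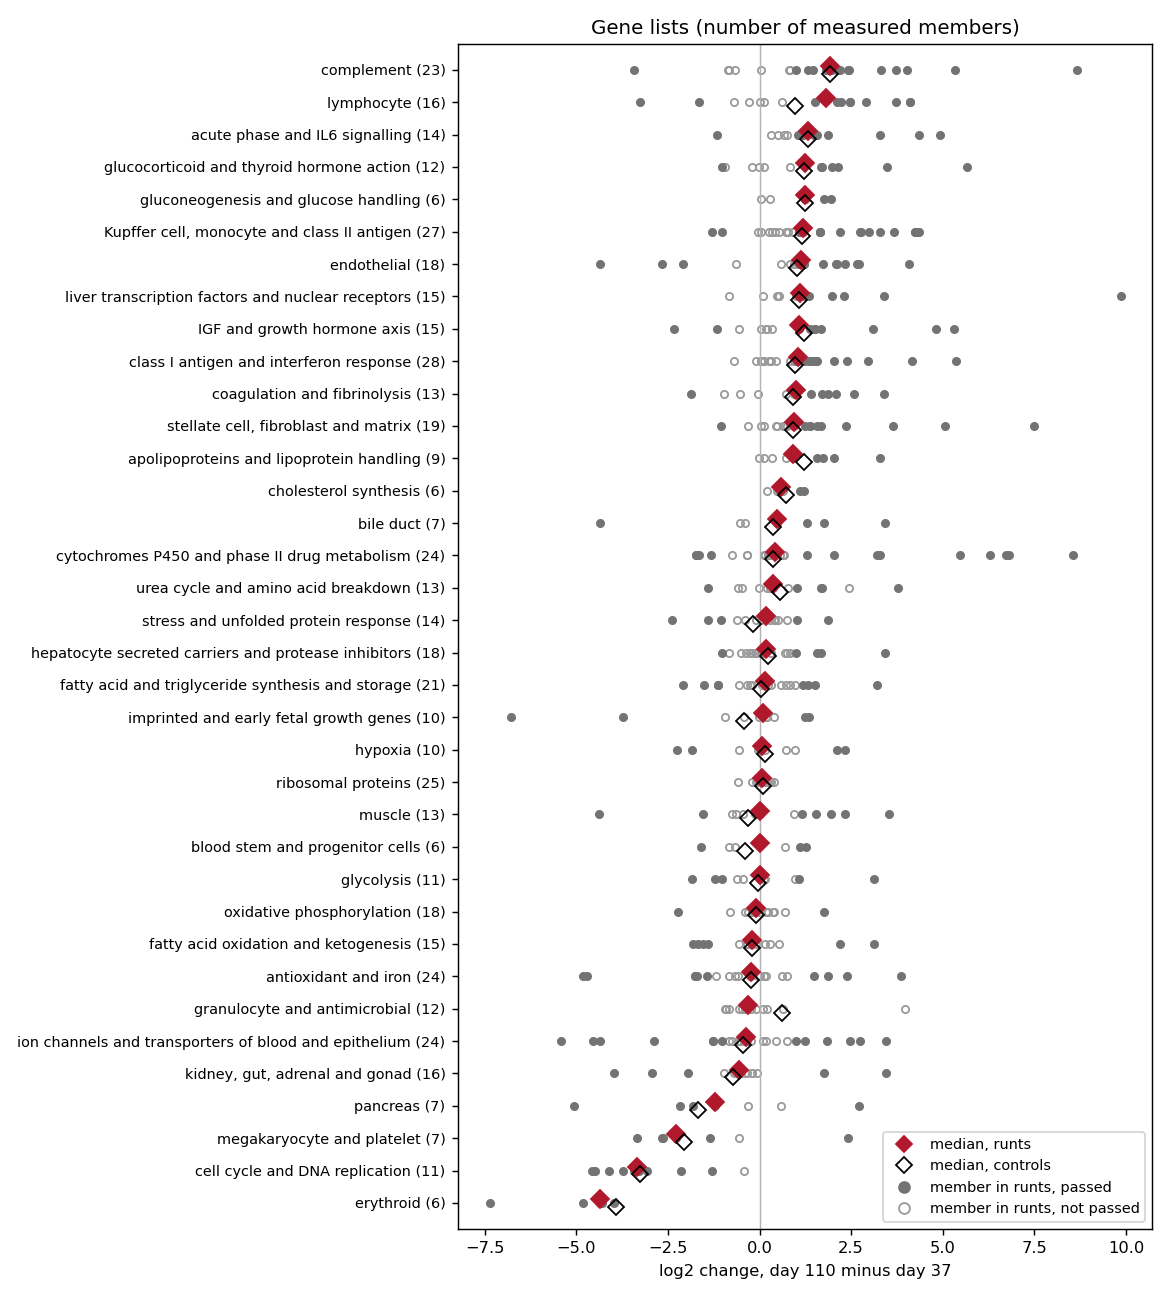
Log2 change of day 110 against day 37 for the gene lists with at least 6 measured members, 1 circle per member in runts (filled where it passed), with the list's median in runts as a filled red diamond and in controls as an open diamond. The cell cycle and erythroid lists lie below 0, most complement genes above 0, and the ribosomal protein list around 0.

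Genes of dividing cells fell almost without exception. Of 11 measured cell cycle and DNA replication genes (from 57 listed, 11 on the array), 10 fell and 0 rose, with a median log2 change of -3.36. CCNB1, the cyclin of mitotic entry, had levels of 0.22, 0.45, 0.13 and 0 in day 110 runts, against 4.17, 4.99, 5.07 and 4.83 in day 37 runts. The arrays of a day lay within 1 log2 unit and the groups more than 3 units apart, so that CCNB1 was 23.7-fold lower (adjusted p = 1.61e-14). The mitotic kinases AURKA and CDK1 were 22.3-fold and 17.3-fold lower. BIRC5, survivin, was 13.2-fold lower, and TOP2A, the topoisomerase of dividing cells, had a log2 change of -3.41 ± 0.20 (SE), adjusted p = 1.23e-13.

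All 6 measured erythroid genes fell, of 6 on the array and 41 listed. Their mean level ran over -1.64 to -0.66 in day 110 runts, against 3.26 to 3.96 in day 37 runts. Beside HBE1, the transferrin receptor TFRC, through which red cell precursors take up iron, had levels of -5.08, -3.57, -4.29 and -4.61 in day 110 runts, against -0.32, 0.85, 0.75 and 0.46 in day 37 runts, 28.3-fold lower (adjusted p = 3.79e-13). The erythropoietin receptor, EPOR, had levels of -0.074, 0.42, -0.42 and -0.69 in day 110 runts, against 3.99, 4.21, 4.32 and 4.04 in day 37 runts, 20.1-fold lower (adjusted p = 3.06e-12). AQP1, a water channel of red cells and endothelium, was 20.6-fold lower. Erythropoietin itself, EPO, which fetal liver secretes, had levels of -2.09, -1.50, 0.16 and -0.995 in day 110 runts, against 0.46, 0.47, 1.75 and 1.85 in day 37 runts, 4.72-fold lower (adjusted p = 0.000329). STEAP1, a metalloreductase of the family that serves iron uptake, was 26.2-fold lower, while its relative STEAP4 was 14.6-fold higher (log2 change 3.87 ± 0.42 (SE), adjusted p = 1.27e-08).

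Of 7 megakaryocyte and platelet genes, 5 fell and 1 rose. The platelet integrin chain ITGB3 had levels of 0.63, 0.68, 1.28 and 1.21 in day 110 runts, against 4.14, 4.18, 4.20 and 4.63 in day 37 runts, 10.1-fold lower (adjusted p = 3.33e-11). The chemokine PPBP was 6.2-fold lower and P-selectin, SELP, of platelets and endothelium, 6.27-fold lower. TBXAS1, thromboxane synthase, which platelets share with macrophages, was 5.33-fold higher. Blood stem and progenitor markers were divided, with 2 rises and 1 fall among 6 measured. KIT, the stem cell factor receptor, had levels of 0.91, 1.12, 1.16 and 1.12 in day 110 runts, against 2.62, 3.24, 2.24 and 2.64 in day 37 runts, and fell by 1.61 ± 0.40 (SE, adjusted p = 0.00145), whereas within slides 1 to 3 the change was -1.30 and did not pass (adjusted p = 0.215). CD34, shared by stem cells and endothelium, rose by 1.26 ± 0.26 (SE).

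Of 12 granulocyte and antimicrobial genes 0 rose and 0 fell. NPG4, a protegrin of pig neutrophils, had levels of 6.68, 6.46, 5.47 and 6.19 in day 110 runts and 7.95, 7.43, 6.01 and 7.03 in day 37 runts, which overlapped (log2 change -0.91 ± 0.53 (SE), adjusted p = 0.157). The mean level of the list ran over 0.08 to 1.37 in day 110 runts and 0.063 to 1.98 in day 37 runts, a wider spread within each day than for the other blood lists.

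Kupffer cells are the resident macrophages of the liver. Of 27 measured macrophage and class II antigen genes (28 on the array), 16 rose and 2 fell, and the mean level ran over 1.19 to 1.59 in day 110 runts, against -0.46 to -0.072 in day 37 runts. SLA-DRA, a class II antigen chain, had levels of 4.40, 3.99, 4.00 and 5.20 in day 110 runts, against 0.54, -0.071, -0.36 and 0.47 in day 37 runts, 19.1-fold higher (adjusted p = 8.99e-12). SLA-DQA1, another such chain, was 18.9-fold higher. The class II chains come from a family of similar sequences, and probes may share signal between them. CCL2, the chemokine that draws monocytes, had levels of 0.35, -0.07, 0.16 and 0.50 in day 110 runts, against -4.38, -4.37, -4.31 and -3.14 in day 37 runts, 19.5-fold higher (adjusted p = 1.36e-11).

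Of 16 measured lymphocyte genes, out of 22 on the array, 9 rose and 2 fell. CD3G, a chain of the T cell receptor complex, had levels of -2.58, -2.85, -2.32 and -2.10 in day 110 runts, against -6.57, -6.58, -6.33 and -6.78 in day 37 runts, where no array was above background, and was at least 4.1-fold higher (adjusted p = 1.12e-12). VPREB1, part of the receptor of B cell precursors, had levels of -0.84, -0.13, -1.26 and -1.59 in day 110 runts, against -4.22, -4.92, -4.35 and -6.79 in day 37 runts, at least 11.2-fold higher (adjusted p = 2.22e-08). CCR7, a homing receptor of T cells, was at least 4.15-fold higher. KLRK1, an activating receptor of natural killer cells, went the other way, with levels of -1.72, -2.71, -2.17 and -2.02 in day 110 runts, against 0.97, 1.13, 1.01 and 1.27 in day 37 runts, 9.53-fold lower (adjusted p = 1.21e-10).

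Of 28 class I antigen and interferon response genes, 15 rose and 0 fell. GBP1, an interferon-induced GTPase, had levels of -0.038, -0.19, 0.34 and 0.85 in day 110 runts, against -5.80, -6.00, -4.99 and -3.74 in day 37 runts, 41.4-fold higher (adjusted p = 5.68e-10). CXCL10, an interferon-induced chemokine, was 18-fold higher, the transcription factor IRF1 5.25-fold higher and the antiviral enzyme RSAD2 at least 1.81-fold higher.

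Of 18 endothelial genes, 11 rose and 3 fell, the falls being AQP1, SELP and CD36, which blood cells also carry. FCGR2B, an antibody receptor that liver sinusoidal endothelium shares with B cells and macrophages, had levels of 4.21, 3.63, 3.71 and 4.15 in day 110 runts, against -0.46, 0.53, -0.20 and -0.49 in day 37 runts, 16.9-fold higher (adjusted p = 8.48e-10). The caveolae proteins CAV2 and CAV1 were 6.62-fold and 6.36-fold higher. The vessel growth factor VEGFA was 5.01-fold higher (log2 change 2.32 ± 0.28 (SE), adjusted p = 9.41e-08), and endothelin, EDN1, at least 1.83-fold higher. Among stellate cell, fibroblast and matrix genes 9 of 19 rose and 1 fell, NTN1 among the rises. MGP, an inhibitor of matrix calcification, had levels of 4.15, 4.24, 4.65 and 4.33 in day 110 runts, against -0.018, -2.05, -1.64 and 0.78 in day 37 runts, 33.7-fold higher (adjusted p = 6.04e-09). RGS5, a pericyte marker, was 12.6-fold higher and the growth factor TGFB3 5.14-fold higher. In day 37 runts replicates 1 and 4 were above replicates 2 and 3 for MGP, RGS5 and TGFB3, as for IGFBP2. Of 7 bile duct genes 3 rose and 1, AQP1, fell. The adhesion molecule EPCAM was 10.8-fold higher. The duct factor SOX9, dim in both groups, was at least 1.09-fold higher (adjusted p = 0.000579). With normexp normalization the log2 change of SOX9 was 0.13 and did not pass (adjusted p = 0.204, limma).

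Genes of neighbouring organs were measured too. Of 7 measured pancreas genes, out of 12 on the array, 3 fell and 1 rose, and the mean level ran over -3.76 to -2.89 in day 110 runts, against -2.84 to -2.16 in day 37 runts. PLA2G1B, a pancreatic phospholipase, had levels of -2.12, -1.88, -3.31 and -1.64 in day 110 runts, against 2.02, 2.99, 3.45 and 2.82 in day 37 runts, 33.3-fold lower (adjusted p = 2.11e-09), and CLPS, the cofactor of pancreatic lipase, was 4.49-fold lower. The part of pancreatic tissue in these values was not tested. Of 13 muscle genes 5 rose and 2 fell. The slow muscle troponin TNNI1 had levels of -0.70, -0.56, -0.51 and -2.47 in day 110 runts, against 3.39, 4.29, 2.18 and 3.43 in day 37 runts, 20.8-fold lower (adjusted p = 5.39e-07). Its fast muscle relative TNNI2 moved the opposite way, with levels of 2.80, 3.37, 2.43 and 3.22 in day 110 runts, against -0.26, -0.46, -0.96 and -0.58 in day 37 runts, 11.5-fold higher (adjusted p = 2.03e-06). SLC15A1, the peptide transporter known from gut, was 11-fold higher (log2 change 3.46 ± 0.58 (SE), adjusted p = 1.59e-05).

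Stress and redox genes did not move as a block. In the stress list 2 of 14 rose and 3 fell. JUN, an immediate early transcription factor, rose by 1.88 ± 0.28 (SE) on the log2 scale and HSPA6, an inducible heat shock protein, fell by 2.38 ± 0.17 (SE). The chaperone CALR changed by 0.30 ± 0.18 (SE) and did not pass (adjusted p = 0.176). In the antioxidant and iron list 4 of 24 rose and 7 fell, shares of 16.7% and 29.2% beside the 22.7% and 13.7% of all genes with a symbol. Beside TFRC and STEAP1, the falls were GPX2, GPX1, NQO1, TXN and TXNRD1, with log2 changes of -1.76 to -1.42. These further falls lie outside the rule for named genes given below. MT3, a metallothionein, was 5.23-fold higher (adjusted p = 0.000154), and ferritin heavy chain, FTH1, changed by -0.26 ± 0.21 (SE), which did not pass (adjusted p = 0.329). The other tested FTH1 probes changed by -0.92 to -0.14, all downward and short of the 2-fold limit. The largest of these changes had an adjusted p of 4.53e-06 (limma). The general machinery lists were flat. Of 25 ribosomal protein genes 0 rose and 0 fell, with a median log2 change of 0.059 and RPS28 at 0.29 ± 0.16 (SE). Of 18 oxidative phosphorylation genes 1 rose and 1 fell, with a median of -0.091.

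The runts at days 50 and 70 place these changes in time. The steps between sampled days were 13, 20 and 40 days long. Of the 7760 features that passed, 1478 (19.05%) made their largest step from day 37 to 50, 1946 (25.1%) from day 50 to 70 and 4336 (55.9%) from day 70 to 110. The last step was the largest for 42.2% of the higher and 72.4% of the lower features, and 56.2% of all moved the same way in all 3 steps. These steps share arrays with the comparison of day 110 with day 37 and carry no test of their own. Array position followed the day here too. Day 70 arrays sat at position 3 and day 50 arrays at position 2, except runt replicate 1 at position 1.

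NR1I2 had mean levels of -6.65 ± 0.23, -6.19 ± 0.65, -0.67 ± 0.92 and 3.22 ± 0.27 in runts at days 37, 50, 70 and 110 (SD, n = 4 each). By these means the largest step of NR1I2 fell between days 50 and 70. No runt array of day 37 or 50 was above background for it, however, so the size of that step is uncertain and its largest step cannot be placed. IGFBP2 averaged 3.02 ± 1.35, 5.95 ± 1.05, 7.39 ± 0.35 and 8.32 ± 0.32 at the same days, with its largest step first. ALB averaged 3.68 ± 1.54, 4.85 ± 1.11, 7.28 ± 0.82 and 7.10 ± 0.50, and was as high at day 70 as at day 110. GHR averaged -4.49 ± 0.54, -4.10 ± 0.43, -3.38 ± 0.39 and 0.33 ± 0.53, nearly all of its change coming after day 70. HBE1 averaged 4.90 ± 0.44, 3.93 ± 0.10, 3.28 ± 0.88 and -2.46 ± 0.29, and CCNB1 averaged 4.77 ± 0.41, 4.09 ± 0.19, 3.61 ± 0.15 and 0.20 ± 0.19. Both had their largest step after day 70.

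Among lists, the median cell cycle change was -0.59 from day 37 to 50, -0.21 from day 50 to 70 and -2.80 from day 70 to 110. For erythroid genes the same steps were -0.38, -0.53 and -3.63. Complement had -0.15, 1.24 and 0.60, a rise spread over the later steps, and the macrophage list had 0.0011, 0.58 and 0.72. KLRK1 ran against its list in time as well, with mean levels of 1.097 ± 0.13, -1.06 ± 0.19, -2.74 ± 0.44 and -2.16 ± 0.41, its fall complete by day 70.

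**Figure D3:**
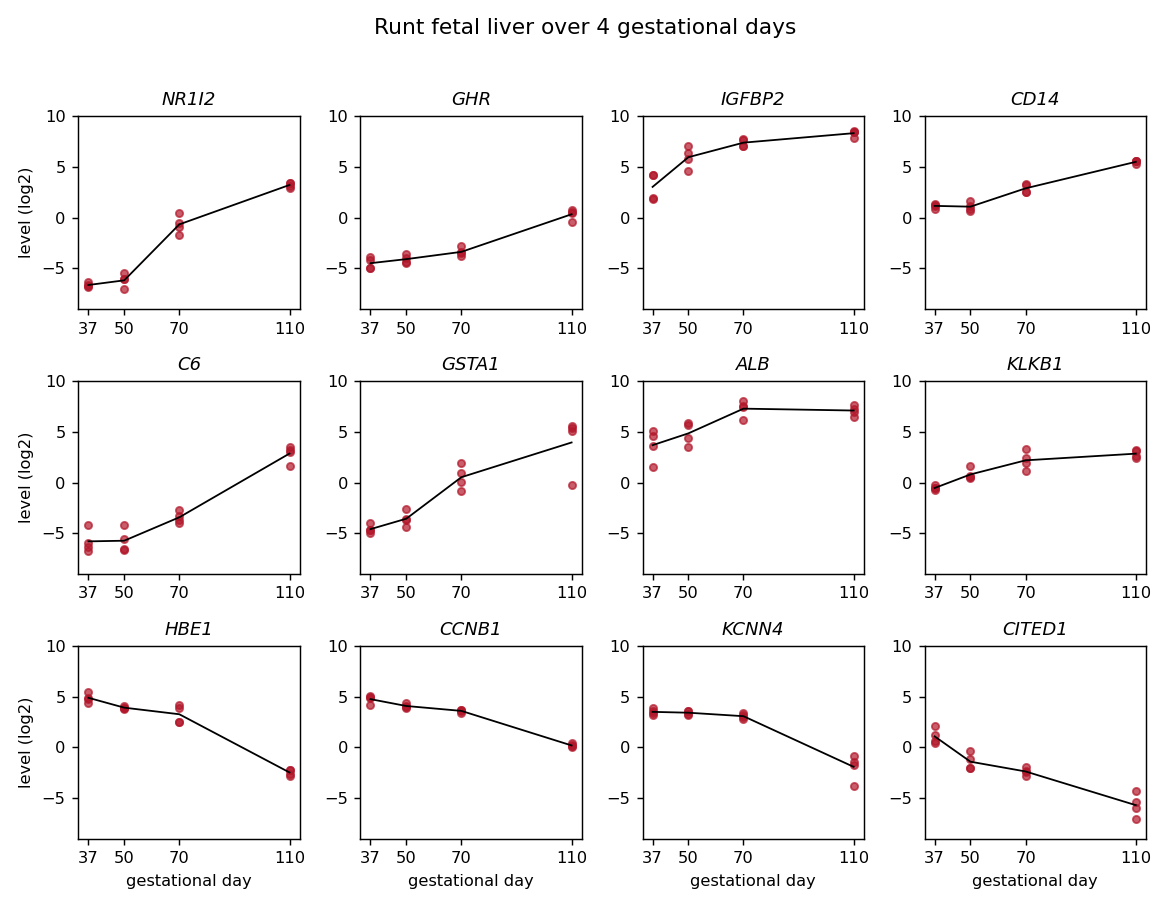
Levels of 12 genes in runts at gestational days 37, 50, 70 and 110, on the log2 scale relative to the 75th percentile of each array, 1 point per fetus and a line through the means of 4. HBE1 and CCNB1 drop mostly after day 70, and IGFBP2 climbs from day 37 onward. The means of NR1I2 climb most between days 50 and 70, but its arrays at days 37 and 50 are below background.

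The control littermates, from the same crowded gilts, cover the same interval. In controls 8401 features passed between day 110 and day 37 (29.3%), 588 of them with a symbol (36.8%). Of the features that passed in runts, 6664 also passed in controls in the same direction, which is 85.9% of the runt calls and 79.3% of the control calls, and 0 passed in opposite directions. Runts and controls share no array, though they are littermates, so the 2 comparisons are not fully independent. Control arrays of days 110 and 37 also sat at positions 4 and 1, so day and position cannot be told apart in either course. Controls changed by 10.48 for NR1I2, 4.89 for GHR, -6.24 for HBE1 and -4.20 for CCNB1 on the log2 scale, beside 9.86, 4.82, -7.36 and -4.57 in runts. For NR1I2 no day 37 array of either course was above background, so both of its changes and their difference rest on dim spots.

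The difference between both courses was tested as an interaction in the same fit. Its background was 0 of 28670 features (0.0%) at an adjusted p under 0.05 (limma), with 533 (1.86%) at an unadjusted p under 0.05 and a lowest adjusted p of 0.957. Leaving out control day 110 replicate 3 gave 1 feature. The typical 95% interval of a feature's difference reached 0.683 log2 units to either side, and the median size of the difference was 0.181. That interval is not adjusted over features, and of the 886 features whose difference reached 1 log2 unit 0 passed. For list medians the largest gap between courses among lists with over 10 genes was that of the granulocyte list, at -0.31 in runts and 0.62 in controls.

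Some genes had intervals that leave 0 out before adjustment, and none of them passed. ALB changed by 3.42 in runts and 1.39 in controls, a difference of 2.03 with a 95% interval of 0.32 to 3.74 (unadjusted p = 0.0216, adjusted p = 1.00 in limma). The control fetuses averaged 7.60 ± 0.52 at day 110 and 6.22 ± 0.66 at day 37 (SD, n = 4). GLUL, glutamine synthetase, which fixes ammonia, had levels of 2.23, 1.13, 2.36 and 1.51 in day 110 runts, against 0.66, -0.25, -0.23 and 0.30 in day 37 runts, a log2 change of 1.69 in runts and 3.00 in controls. The difference was -1.31 with an interval of -2.20 to -0.42 (unadjusted p = 0.00567, adjusted p = 1.00 in limma). PLA2G1B differed by 1.83 (0.41 to 3.26), VPREB1 by 1.51 (0.18 to 2.83), HBE1 by -1.12 (-2.11 to -0.13), IGF1R by 0.57 and CLU by -0.61 (-1.11 to -0.11). VPREB1 was not above background on any day 37 runt array, so its difference rests in part on dim spots. For GHR the interval was -0.92 to 0.78, for NR1I2 -1.82 to 0.59 and for IGF2 -0.51 to 0.63, all spanning 0. The IGF2 probe used had the smallest difference of its tested probes, at 0.061. The other IGF2 probes differed by 0.21 to 0.57, and none passed.

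**Figure D4:**
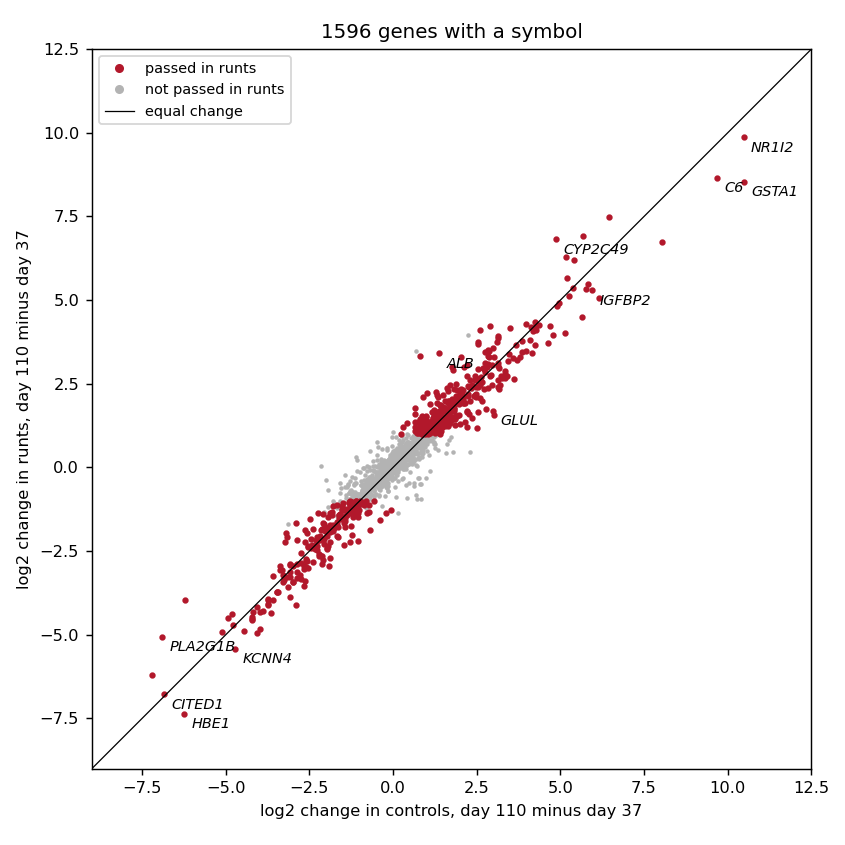
Log2 change of day 110 against day 37 in runts (vertical axis) and in controls (horizontal axis) for the 1596 genes with a symbol, 1 point per gene, red where the gene passed in runts, with the line of equal change. Points follow the line, and ALB and GLUL are labelled among those away from it, neither of which passed the test of the difference.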

How the data were processed

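Single-colour Agilent arrays measured Cy3-labelled total liver RNA, 1 fetus per array. The deposited scanner files hold fluorescence intensities that, per the file headers, Feature Extraction 10.7.3.1 had corrected for background. A second deposited table holds log2 values of the same arrays, with column medians of 5.148 to 5.153 and 1 shared maximum. The submitters' processing notes name Partek, and its version and settings are not given in the sources used here.

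From the 43803 non-control spots, those the software had called outliers were dropped (2 to 234 per array). The log2 processed signal minus each array's 75th percentile (177 to 460 intensity units) was averaged over repeat spots, giving 43603 probes. A total of 2683 probes carry an accession that matched the pig RefSeq table of assembly Sscrofa11.1, for 1904 symbols, and the rest kept their array names. Probes entered the tests when well above background on at least 3 of 4 arrays of any group, 29358 in all. The probe with the highest mean stood for a symbol, which left 28670 features, 245 of them with a missing value and none of those named here.

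Means of the 8 groups were estimated with limma 3.58.1 in R 4.3.3, with 24 residual degrees of freedom and two-sided tests, and the code was tested on simulated data. A difference between courses counted at an adjusted p under 0.05 alone. Intervals are at 95%, and the number of arrays limits the precision. Replicates are fetuses of separate pregnancies.

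The comparison and the 37 gene lists (1330 symbols, 537 on the array, 488 measured) were chosen with earlier results of these data known. Named genes were the 12 largest rises and 12 largest falls with separated groups, up to 4 passing and 2 failing members of each list, and a panel of liver genes, of which 132 are printed. Same-numbered runts of days 110 and 37 deviated together weakly (correlations 0.161, 0.104, 0.193 and 0.112) and share a slide set. They come from separate pregnancies and are not pairs, so the main fit holds no pairing. The replicate number as a block, run as an alternative, gave 7887 features. Alternatives were quantile normalization, normexp with an offset of 50, other filters, thresholds and samples, slide as a block, each slide set alone, and each array left out. The files lack the mean signal that was planned for normexp, so the median signal was used. No positions or sequences are given.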

Additional observations from a re-analysis of the deposited data

Results flagged for a closer look

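A gap test on 4 arrays compares the distance from the highest or lowest array to its nearest neighbour with the range of the group. Chance alone marks about 1 group in 20, and 20 of 264 gene and day groups were marked. All values are levels on the log2 scale.

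In day 110 runts, replicate 1 lay apart for GSTA1 at -0.249 (others 5.07 to 5.62), for DAO at 0.998 (others 2.39 to 2.57) and for ARG1 at 4.95 (others 4.70 to 4.74). Replicate 2 lay apart for TOP2A at 2.16 (others 1.80 to 1.85). Replicate 3 was the low array for NR1I3 at 0.298 (others 1.84 to 2.15), FBP1 at 6.45 (others 7.06 to 7.18), VEGFA at 0.713 (others 1.78 to 1.99), MT3 at 4.62 (others 6.14 to 6.19) and CD34 at -1.63 (others -1.02 to -0.966). Replicate 4 was the high array for VTN at 8.70 (others 8.26 to 8.30) and HSD11B1 at 6.11 (others 5.57 to 5.65), and the low one for TNNI1 at -2.47 (others -0.701 to -0.510).

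In day 37 runts, replicate 1 lay apart for SULT2A1 at -3.14 (others 0.214 to 0.781), PHACTR3 at 3.51 (others 4.03 to 4.11) and UPK2 at 0.384 (others -0.904 to -0.727). Replicate 2 lay apart for PEG10 at 7.05 (others 6.79 to 6.81) and replicate 3 for CD34 at -2.84 (others -2.33 to -2.23). Replicate 4 was the high array for SAA3 at -2.55 (others -3.23 to -3.13), ITGB3 at 4.63 (others 4.14 to 4.20) and CCL2 at -3.14 (others -4.38 to -4.31). For each of these genes the arrays of day 110 and day 37 did not overlap.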

How the results depend on the processing

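The count of features passing in runts was 3183 with normexp, 3113 with the 2-fold limit inside the test and 14348 with no fold limit, against 7760, and for genes with a symbol 344, 288 and 941, against 580. In controls the same settings gave 3456, 3306 and 15230, and slides 1 to 3 alone gave 5358, against 8401. The share of higher calls in runts was 54.8%, and 49.8% with normexp. Leaving out arrays gave 7403 to 7933 features and 555 to 577 symbols in runts and 7761 to 8798 features in controls, and 0 to 1 for the difference between courses. The other settings stayed within 1.5 times these counts. The features whose difference between courses had an unadjusted p under 0.05, 533 in the full fit, numbered 1319 within slides 1 to 3, 1006 without control day 110 replicate 1, 941 without runt day 110 replicate 3, 806 without runt day 37 replicate 1 and 458 to 669 without any other single array. The replicate block gave 7887 features, 586 symbols and 0 differences, a block of littermates within day 0 (901 at an unadjusted p under 0.05), and neither changed the call of a named gene.

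Of 132 named genes that passed, 92 did so under all alternatives that were compared gene by gene, and 0 changed direction. The 2-fold limit inside the test was compared by counts alone and is not among these alternatives. Normexp, which compresses low signals by its construction (offset 50), ended 25 calls, slides 1 to 3 alone 10, slides 4 to 9 alone 13, leaving out arrays 9 and another probe 4. Among printed genes those normexp ended were C7, GATA4, CYP7A1, CD34, TBXAS1, CD3G, CCR7, RSAD2, SOX9, CLPS, PFKM, FABP4, CIDEC, KLF9, EDN1 and HNF4A. Of genes that did not pass, TTR changed sign without day 110 replicate 3 (0.0249, range over arrays left out -0.460 to 0.0249) and IGF1 within slides 4 to 9 (-0.0755). IGF1R changed sign with normexp (-0.0703) and within slides 1 to 3 (-0.0186). It also did so without day 37 replicate 2 (-0.0074) and without day 110 replicate 3 (-0.0228, range over arrays left out -0.0228 to 0.141). The cause was not tested.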
